A study of Mus musculus with 8 samples.

Results

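The muscle nicotinic acetylcholine receptor is the ion channel that turns release of acetylcholine by the motor nerve into depolarisation of the muscle fibre. Its 5 subunit genes were examined here: Chrna1 (alpha1), Chrnb1 (beta1), Chrnd (delta), Chrng (gamma) and Chrne (epsilon). The members were all probe sets annotated to these genes, which gave 7 probe sets, among 18193 named genes on the arrays. All 7 were on array type A and none was on type B. Chrng had 3 probe sets and each of the other genes had 1.

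Total RNA of mouse skeletal muscle myotubes, the multinucleated cells formed by fusion of muscle precursors, was hybridised to oligonucleotide arrays of 2 types. The series concerns genes regulated by Egr3, a zinc-finger transcription factor, in primary myotubes. There were 4 RNAs and 8 samples, with each RNA on 1 array of each type. One RNA was labelled truncated Egr-3 (called truncated Egr3 here) and one was labelled as the wildtype, and both carry the treatment type "grow". RNA275 carries the treatment type "acclimatization" and RNA276 none, so these 2 RNAs belong to no group and their values are given without comparison between groups. The labels used here give no strain, age, time in culture or number of animals or cultures, and do not describe the truncation or how the cells came to carry it. Each label has 1 RNA and so no replicate check; no p-value can be had, and every difference is one between single RNAs.

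The receptor is a ring of subunits around a central pore. The fetal form contains a pair of alpha1 subunits with beta1, delta and gamma. As the neuromuscular junction matures, epsilon takes the place of gamma, and the adult channel opens more briefly and passes more current. Aneural myotubes in culture and denervated fibres are known for the fetal form. The subunit genes are driven in muscle by myogenic factors acting at E-boxes, and epsilon is also driven by Ets factors acting at a short sequence called the N-box.

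The label of the cells was checked first. All 10 of 10 skeletal muscle markers, among them Acta1, Ckm, Ttn and Myh3, were above the signal floor in all 4 RNAs. That floor was an intensity of 67.6 on type A, the median of the truncated Egr3 and wildtype arrays pooled. The summed signal of the 10 markers was 23613 in truncated Egr3, 27721 in wildtype, 25071 in RNA275 and 27371 in RNA276. A sum does not show single markers, which could vary more. Ttn read 1627 in truncated Egr3, 1850 in wildtype, 704 in RNA275 and 354 in RNA276. Markers of other cells were dim in part. Below the floor in all 4 RNAs were 2 of 4 fibroblast markers (Pdgfra and Thy1), 3 of 4 macrophage markers, 3 of 5 neuronal markers, 1 of the 2 Schwann cell markers on the arrays and 2 of 3 satellite cell and myoblast markers. The other 2 fibroblast markers, Col1a1 and Dcn, and 2 of 3 smooth muscle markers, Acta2 and Tagln, were above the floor in all 4 RNAs. So were Csf1r (macrophage), Chat (neuron, on type B), Sox10 (Schwann cell) and Cdh15 (satellite cell and myoblast). On type A, 47.0% to 50.6% of all probe sets were above the floor in each RNA, and on type B 38.6% to 41.3%. Of 18193 named genes, each read by its brightest probe set as the markers were, 8414 were above the floor in all 4 RNAs. Marker counts near these shares do not tell whether a cell type was present. Col1a1 read 3417 in truncated Egr3 and 4295 in wildtype, and Acta2 read 2848 in truncated Egr3 and 3427 in wildtype. In total RNA fewer myotubes cannot be told apart from less RNA per myotube.

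Gamma by its brightest probe set and epsilon by its only one lay on opposite sides of the floor in all 4 RNAs. A further gamma probe set, given below, was under the floor in all 4. The brightest gamma probe set was at least 10.2 times the floor in every RNA, and the epsilon probe set was below the floor in every RNA. Signals of different probe sets are not on 1 scale, since each depends on its own probes, so each gene is set here only against the floor of its array.

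Chrng encodes the gamma subunit, which marks the fetal receptor. Its brightest probe set (1449532_at) read 853 in truncated Egr3, 885 in wildtype, 691 in RNA275 and 791 in RNA276. These signals lay between percentiles 94.1 and 96.0 of the probe sets on their arrays. Another gamma probe set (1452520_a_at) read 328 in truncated Egr3, 326 in wildtype, 252 in RNA275 and 319 in RNA276. RNA275 was the lowest of the 4 by both probe sets, and the truncated Egr3 and wildtype RNAs were nearly level by both. The remaining gamma probe set (1427728_at) stayed below the floor throughout, at 11.0 in truncated Egr3, 20.4 in wildtype, 19.6 in RNA275 and 18.2 in RNA276. The same gene therefore gave bright and unreadable probe sets in the same RNAs.

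Chrne encodes the epsilon subunit, which marks the adult receptor. Its 1 probe set (1420560_at) read 19.9 in truncated Egr3, 12.5 in wildtype, 4.17 in RNA275 and 4.52 in RNA276. The highest of these, in truncated Egr3, was still 3.40 times under the floor, at percentile 25.5 of its array, and the lowest was at percentile 8.97. No fold between RNAs is given for epsilon, because all values were below the floor. For the same reason no difference between gamma and epsilon in their response to truncated Egr3 could be given. Epsilon was not detectable by this probe set, and the dim probe set of Chrng shows that a dim reading need not mean that a transcript is missing.

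**Figure D1:**
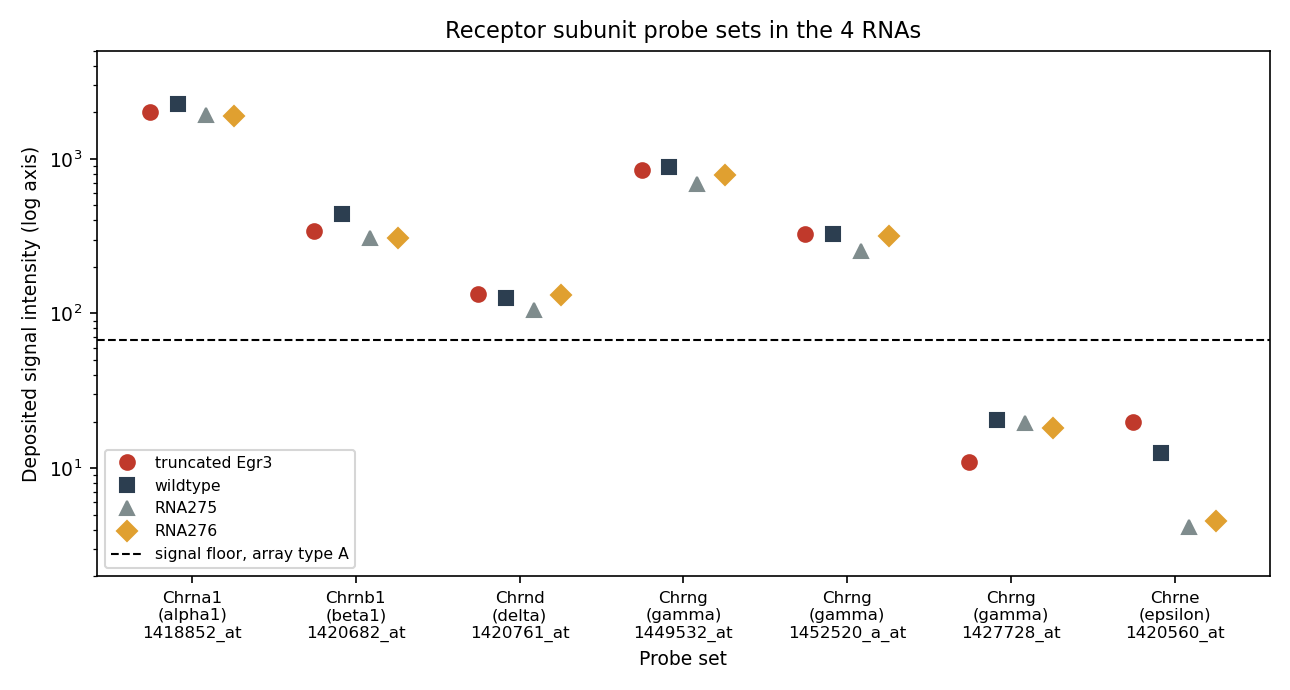
Deposited signal intensity (log axis) of the 7 receptor subunit probe sets, 1 point per RNA, with the signal floor of array type A (67.6) as a dashed line. The Chrna1, Chrnb1 and Chrnd probe sets and the first 2 Chrng probe sets lie above the floor in all 4 RNAs, and the last Chrng probe set and the Chrne probe set lie below it in all 4.

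The sequence upstream of the gamma and epsilon genes is shown because these genes differ in the E-box and N-box that muscle factors use, and that of the alpha1 gene as a subunit of both the fetal and the adult receptor. RefSeq promoter windows (GRCm38.p6) were matched by symbol for 4 of the 5 genes, and the 250 bases before each annotated start are used. Chrnd had no entry. Capitals mark E-boxes (CANNTG) and the N-box (CCGGAA), searched on both strands, and no 2 matches overlap.
Chrng, chr1:87205561-87205810, plus strand: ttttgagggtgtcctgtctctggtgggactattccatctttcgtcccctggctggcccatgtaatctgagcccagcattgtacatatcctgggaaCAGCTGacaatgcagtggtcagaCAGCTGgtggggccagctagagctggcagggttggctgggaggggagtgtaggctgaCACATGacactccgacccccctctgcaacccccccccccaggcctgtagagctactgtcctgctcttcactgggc
Chrne, chr11:70619195-70619444, minus strand: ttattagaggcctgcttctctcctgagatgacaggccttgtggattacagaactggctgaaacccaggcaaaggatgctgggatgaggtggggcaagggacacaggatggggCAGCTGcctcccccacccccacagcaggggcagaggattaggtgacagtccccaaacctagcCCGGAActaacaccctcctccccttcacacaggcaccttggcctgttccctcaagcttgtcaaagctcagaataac
Chrna1, chr2:73580339-73580588, minus strand: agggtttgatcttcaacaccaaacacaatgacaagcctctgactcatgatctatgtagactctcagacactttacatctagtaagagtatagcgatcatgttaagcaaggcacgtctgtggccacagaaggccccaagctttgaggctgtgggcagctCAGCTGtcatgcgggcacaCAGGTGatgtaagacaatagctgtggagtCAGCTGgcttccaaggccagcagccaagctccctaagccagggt

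The gamma window held 3 E-boxes, at 155, 132 and 75 bases before the start, and no N-box. The first 2 of these have the form CAGCTG, which is a subset of CANNTG and reads the same on both strands. The epsilon window held 1 E-box, also CAGCTG, 138 bases before the start, and 1 N-box 76 bases before the start. The alpha1 window held 3 E-boxes, 2 of them CAGCTG, and the beta1 window held 3 of other forms. Of 32851 promoter windows of the same length, 66.2% held at least 1 E-box and 12.2% at least 3. At least 2 CAGCTG matches stood in 1.26% of windows, and at least 1 N-box in 12.0%. Both forms of the site bound by Egr proteins that were searched, GCGTGGGCG and GCGGGGGCG, were missing from the 4 windows, and they were found in 0.536% and 2.57% of all windows. A match is a run of letters and not a measured binding site, and a missing match says nothing of the factor.

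**Figure D2:**
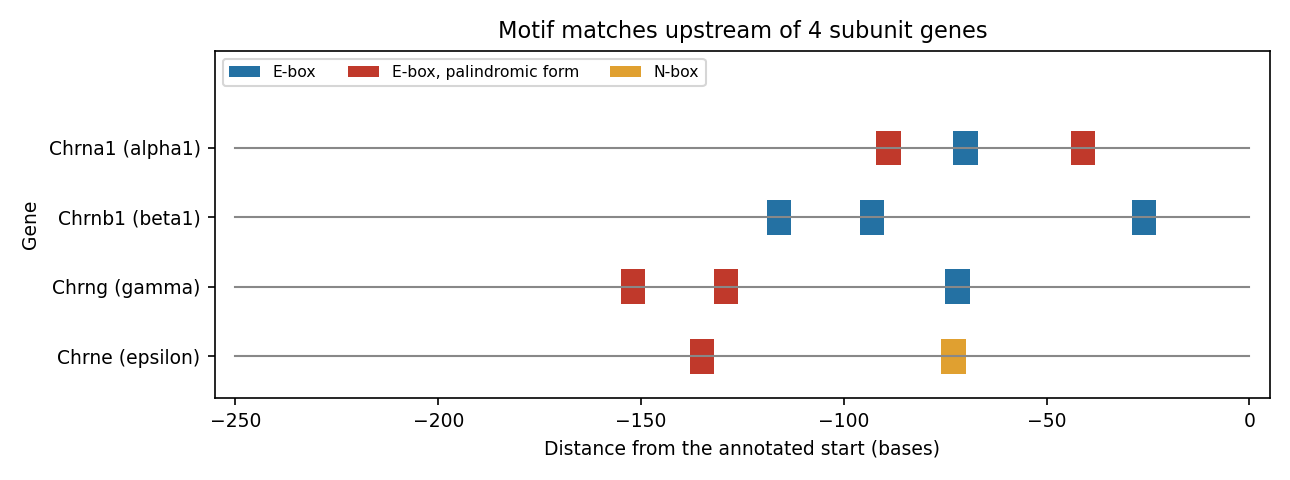
Positions of E-box and N-box matches in the 250 bases before the annotated start of Chrna1, Chrnb1, Chrng and Chrne, with distance from the start in bases on the x axis and 1 gene per line. Chrna1, Chrnb1 and Chrng each hold 3 E-boxes, and Chrne holds 1 E-box and the N-box.

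The subunits shared by the fetal and adult receptors were all above the floor in all 4 RNAs. Chrna1 encodes alpha1, which gives the main face of the acetylcholine binding site. Its probe set (1418852_at) read 2009 in truncated Egr3, 2262 in wildtype, 1919 in RNA275 and 1883 in RNA276. It was among the brightest 2% of its array in each RNA, with percentiles from 98.5 to 99.0. Wildtype was highest, and the other 3 RNAs followed closely.

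Chrnb1 encodes beta1, a structural subunit that takes part in anchoring the receptor to rapsyn. Its probe set (1420682_at) read 343 in truncated Egr3, 439 in wildtype, 308 in RNA275 and 307 in RNA276. Wildtype stood above the other RNAs, and RNA275 and RNA276 were level.

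Chrnd encodes delta, which pairs with alpha1 at one of the binding sites. Its probe set (1420761_at) read 135 in truncated Egr3, 126 in wildtype, 106 in RNA275 and 131 in RNA276. These signals were nearest to the floor among the readable subunits, at percentiles 61.5 to 67.9. RNA275 was lowest, as it was for both readable probe sets of Chrng. Chrnd and Chrng are neighbouring coding genes on mouse chromosome 1 in the RefSeq annotation, and Chrnb1 and Chrne both lie on chromosome 11.

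No subunit was 2-fold apart between truncated Egr3 and wildtype. A gene was counted as measured when at least 1 of these RNAs was above the floor, which held for 10307 genes and for 4 of the 5 subunits. At least 2-fold apart were 0 of the 4 measured subunits, against 1.66% of all measured genes (0.534% higher and 1.13% lower in truncated Egr3). At that background, 0 of 4 is not a result about the receptor.

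Chrnb1 had the largest of the 4 differences, at -0.36 in log2 (truncated Egr3 minus wildtype), or 21.9% lower signal in truncated Egr3. For Chrna1 the log2 difference was -0.17, for Chrng -0.05 and for Chrnd 0.10. The other readable Chrng probe set gave 0.01, so gamma had no settled sign. The median of the 4 subunits was -0.11, beside 0.00 for all measured genes. Of the 4, 3 were below 0, as were 5146 of the 10307 measured genes.

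Technical error was the one kind these arrays can give. For 100 probe sets on both array types, the SD between types was 0.253 for this log2 difference, which gives 0.179 for a single difference. The mean of type A minus type B was -0.139 for the same probe sets, an offset that the SD leaves out. All subunit probe sets are on type A, so their differences may carry this offset. Pairs of probe sets sharing a gene differed more than the array types did, with an SD of 0.384 over 4780 pairs on type A. Like 0.253, this SD is for a gap within a pair. It was not reduced to a single difference, so no subunit difference is set against it. The Chrnb1 difference was 1.99 times the technical SD, and Chrnb1 had no other probe set to check it. Those of Chrna1, Chrnd and Chrng were smaller than the technical SD. A larger absolute difference than that of Chrnb1 was found in 26.3% of measured genes. The share was 57.0% for Chrna1, 74.1% for Chrnd and 85.7% for Chrng.

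Over all 4 RNAs each of the 4 readable receptor genes spanned less than 2-fold. Chrne is left out, as it was below the floor. From the lowest to the highest RNA, the span was 1.20-fold for Chrna1, 1.27-fold for Chrnd, 1.28-fold for Chrng and 1.43-fold for Chrnb1. Among 8414 genes above the floor in all 4 RNAs, the median span was 0.56 in log2, and 14.0% spanned 2-fold or more. A wider span than that of Chrna1 was found in 89.5% of them. The share was 79.8% for Chrnd, 78.5% for Chrng and 56.5% for Chrnb1, whose span of 0.52 in log2 was close to the median. The 2 unassigned RNAs are included in these spans, which are those on the deposited scale. The subunits were not matched to other genes by signal level.

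Few steps in the order of the RNAs were larger than the technical SD. The orders are those on the deposited scale and were not repeated on another. The type A medians on that scale were 66.2 in truncated Egr3, 69.2 in wildtype, 64.2 in RNA275 and 59.3 in RNA276. Small steps may therefore change place with the scaling. That SD was measured on the difference of truncated Egr3 and wildtype alone and holds no variation between cultures, so a step past it is not shown to differ between conditions. For Chrna1 and Chrnb1 the order was wildtype, truncated Egr3, RNA275 and RNA276, and only the Chrnb1 step between truncated Egr3 and wildtype, 0.36 in log2, was larger than the SD of 0.179. For Chrng the order was wildtype, truncated Egr3, RNA276 and RNA275, and only the last step, 0.19, was larger, by little. By the other readable Chrng probe set that step was 0.34, and the steps among the 3 higher RNAs were 0.01 and 0.03. For Chrnd the step from wildtype down to RNA275 was 0.25, and the other steps were under the SD. Genes with a like pattern were to be sought for members that span 2-fold over the RNAs; none of the 4 readable members did, so none is named.

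**Figure D3:**
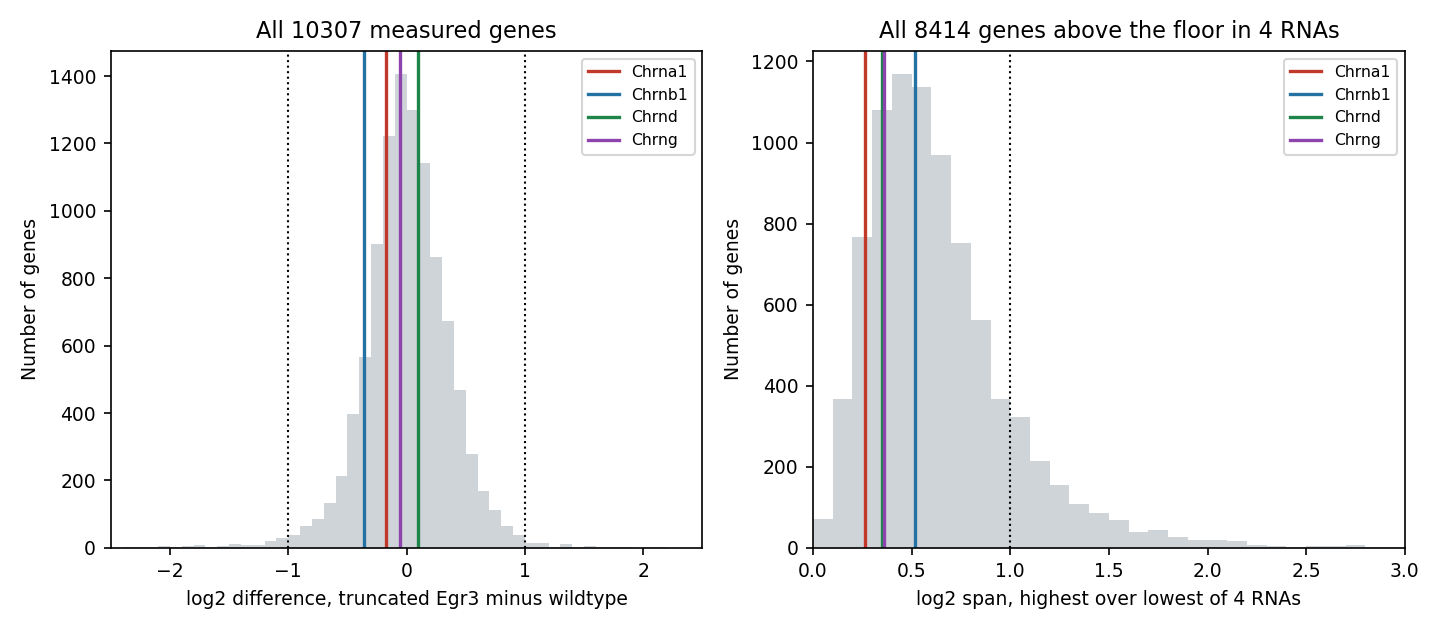
Left, number of genes by log2 difference (truncated Egr3 minus wildtype) for 10307 measured genes; right, number of genes by log2 span over the 4 RNAs for 8414 genes above the floor in all of them. Coloured lines mark the 4 readable subunits, and dotted lines mark 2-fold; all 4 subunits lie inside the 2-fold lines in both panels.

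Other nicotinic subunits, which form the receptors of neurons and other cells, were dim. Of 11 such genes, 10 were on the arrays, 8 were below the floor in all 4 RNAs and 0 were above it in all 4. Of all 18193 named genes, 8414 were above the floor in all 4 RNAs. How many were below it in all 4 was not counted. The measured ones were Chrna4, at 75.6 in truncated Egr3 and 86.7 in wildtype, and Chrnb2, at 57.8 in truncated Egr3 and 69.2 in wildtype, where the log2 difference of -0.04 is a bound. Neither was 2-fold apart. Counts at 2-fold in this list and the lists below stand beside 1.66% of all measured genes. At that background, a count of 0 in lists this short is not a result about the list.

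Genes that cluster and anchor the receptor at the synapse had 10 measured members of 12, with 0 at 2-fold and a median of -0.13. Of these differences, 3 are bounds. Agrn, which encodes the nerve- and muscle-derived clustering signal agrin, read 94.7 in truncated Egr3, 187 in wildtype, 201 in RNA275 and 137 in RNA276, a log2 difference of -0.98. Ache, the enzyme that degrades acetylcholine, read 93.4 in truncated Egr3, 31.5 in wildtype, 29.8 in RNA275 and 89.9 in RNA276. Its log2 difference of 0.47 is a lower bound, with wildtype at the floor. Rapsn, which encodes the scaffold rapsyn that binds the receptor directly, read 175 in truncated Egr3 and 194 in wildtype (-0.15). Musk, the receptor kinase of the synapse, was close to the floor, at 65.1 in truncated Egr3 and 73.8 in wildtype.

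The E-box list held factors that drive or restrain receptor genes, with 12 of 15 measured and a median of -0.18. At 2-fold, 1 was higher in truncated Egr3 and 0 were lower, beside 0.534% and 1.13% of all measured genes. The member at 2-fold was Myf6, a late myogenic factor, which read 229 in truncated Egr3, 73.7 in wildtype, 65.0 in RNA275 and 220 in RNA276, a log2 difference of 1.63. Truncated Egr3 and RNA276 were high and wildtype and RNA275 were low. No readable subunit had a split of this size. Chrnd had the same RNAs above and below, but RNA276 and wildtype were 0.06 apart there in log2, under the technical SD. A link between Myf6 and Chrnd was not tested. Myog and Myod1, the myogenic factors best known at receptor E-boxes, had log2 differences of -0.35 and -0.39. Id1, which blocks such factors, read 149.5 in truncated Egr3 and 242 in wildtype (-0.69). Of the other Id genes in the list, Id3 had -0.50. Id2 had a lower bound of 0.46, and -0.11 by another probe set, so the Id genes had no shared sign. Histone deacetylases link nerve activity to receptor genes. Of those in the list, Hdac4 and Hdac5 had higher signal in truncated Egr3, at 0.42 and 0.47, with 0.63 and 0.53 by other Hdac4 probe sets. Hdac9, and Dach2, a corepressor of the same pathway, were below the floor in all 4 RNAs.

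Among neuregulin and Ets regulators, the pathway linked to the N-box, 5 of 7 were measured, 0 were at 2-fold and the median was -0.02. The neuregulin receptor genes Erbb2 and Erbb3 had differences of -0.53 and -0.45, while Gabpa, an Ets factor known to bind the epsilon N-box, had 0.43 by its brightest probe set and -0.23 by another measured one. Of 6 genes linked to receptor assembly, 5 were measured, 0 were at 2-fold and the median was 0.13. Rer1, which retains unassembled receptor subunits early in the secretory path, had a difference of 0.77, and 0.22 by another probe set. Calr, a chaperone, had 0.35.

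Genes that respond to denervation, as gamma does in adult muscle, had 9 of 10 measured, 0 at 2-fold and a median of -0.32. The largest differences were those of Cdkn1a, a cell cycle inhibitor (-0.50), and Fbxo32, a ubiquitin ligase of muscle atrophy (-0.47). Fbxo32 gave -0.04 by another probe set.

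Fetal and adult isoforms of contractile proteins were set beside gamma and epsilon. Of 6 embryonic and fetal genes, 5 were measured, all of them above the floor in all 4 RNAs, with 0 at 2-fold and a median of -0.27. Tnnt2 and Myl4, isoforms of developing muscle that are also cardiac, had differences of -0.33 and -0.30. Of 8 adult genes, 6 were measured and 4 were above the floor in all 4 RNAs, with 0 at 2-fold and a median of 0.26, of which 2 differences are bounds. Myh4, the fastest adult myosin heavy chain, read 698 in truncated Egr3, 556 in wildtype, 270 in RNA275 and 164 in RNA276 (0.33). Pvalb, a calcium buffer of fast fibres, had a lower bound of 0.35. Some genes of the adult list were thus bright in RNAs in which the epsilon probe set was below the floor. Atp2a1, the fast calcium pump, also read 2339 in truncated Egr3 and 2382 in wildtype. Other genes of the adult list were dim. Clcn1 was below the floor in all 4 RNAs, as epsilon was, at 5.56 in truncated Egr3 and 8.15 in wildtype. Myh2 was above the floor in truncated Egr3 alone, at 81.2, and read 57.4 in wildtype. These are readings of genes, and which transcript forms gave them was not tested.

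Of the 10 skeletal muscle markers, 9 had lower signal in truncated Egr3 than in wildtype, with a median of -0.21. Of all 10307 measured genes, 5146 were lower. These markers were bright, and the dimmest, Ckm, read 1276 in truncated Egr3 and 1425 in wildtype. Chrna1 and Chrnb1 were also lower in truncated Egr3, while Chrng had no settled sign and Chrnd was above 0. With loess the difference was -0.10 for Chrna1 and -0.38 for Chrnb1. Myog and Tnnc1, a troponin of slow and cardiac muscle, had the largest differences, at -0.35 and -0.39. Of the other cell types, the summed signal of 4 fibroblast markers, most of it from Col1a1, was 3790 in truncated Egr3 and 4519 in wildtype. The 2 measured ones differed in sign, with Col1a1 at -0.33 and Dcn, a matrix proteoglycan, at 1.02 (317 in truncated Egr3 and 157 in wildtype), and their median was 0.34. The summed signal of 3 smooth muscle markers was 3948 in truncated Egr3 and 5387 in wildtype. Tagln, a smooth muscle actin-binding protein, was at -0.83. The part of muscle RNA content, of these cells or of signal level in the marker and subunit differences was not tested.

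**Figure D4:**
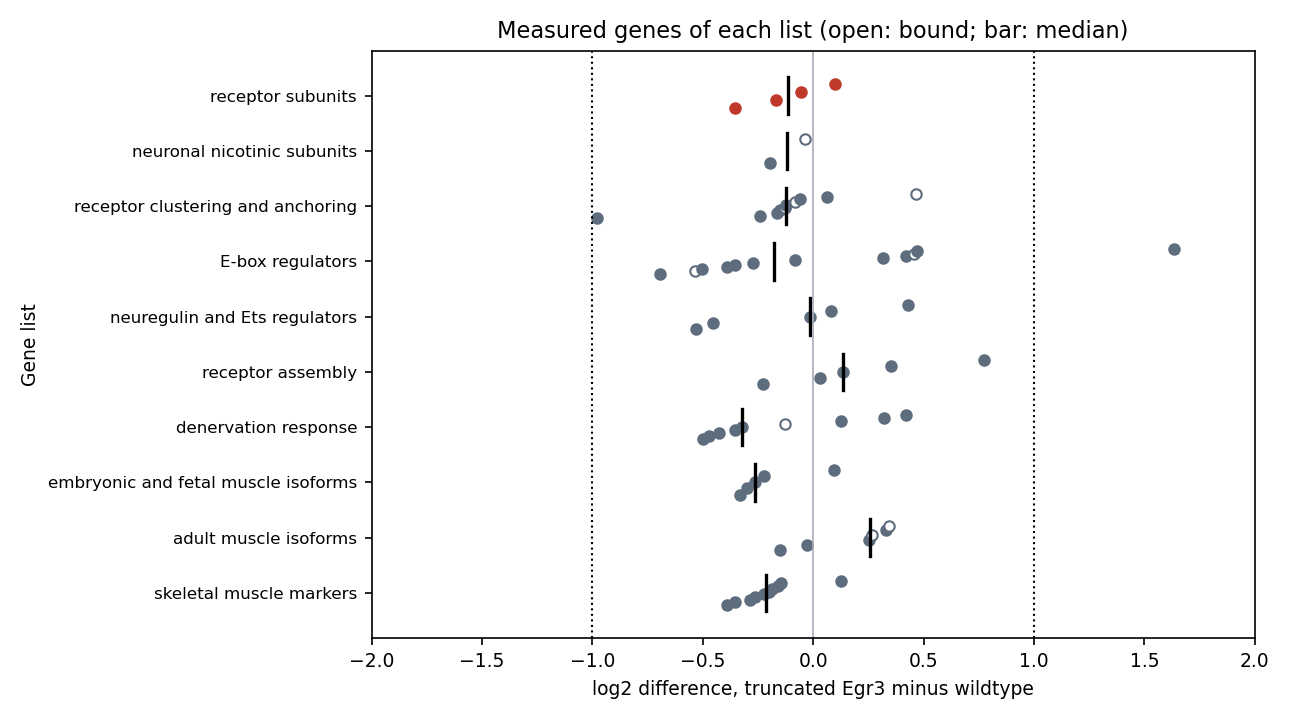
Log2 difference (truncated Egr3 minus wildtype) of each measured gene, for the subunits, 8 lists of related genes and the skeletal muscle markers, with bars for list medians, open points for bounds and dotted lines at 2-fold. The subunits (red) lie between -0.36 and 0.10, and Myf6, at 1.63, is the one gene of these lists past a 2-fold line; markers of other cell types are not drawn.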

How the data were processed

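The deposited files hold 1 intensity per probe set on a linear scale, for 4 RNAs on each of 2 array types. Which software and normalization the authors used for these intensities is not given in the sources used. With 2% of probe sets trimmed at both ends, the mean was 150.0 on all 8 arrays as deposited. That scale was kept, and it would hide a change shared by most genes.

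Probe sets were named from the platform annotation, with symbols updated by gene number through RefSeq (GRCm38.p6). On type A, 20380 probe sets had 1 symbol, 691 several and 1555 none, and on type B there were 14661, 245 and 7605. Each gene was read by its brightest probe set, on type A where present. The floor was the 50th percentile of the truncated Egr3 and wildtype arrays on type A and the 60th on type B (112.6), set before log2. Where 1 RNA was at the floor, the difference is a bound. The technical SD used unfloored signals. The number of arrays limits the precision.

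The members and gene lists were chosen with earlier results of these data known. Named from each list were up to 3 members at 2-fold, or the 2 with the largest difference. Others were named for their role after their values were seen: Rapsn, Musk, Myog, Myod1, Id1, Id2, Id3, Hdac4, Hdac5, Hdac9, Dach2, Gabpa, Atp2a1, Clcn1, Myh2 and the cell type markers given with values. The tools were pandas 2.3.3 and numpy 2.4.6 under Python 3.11.15, statsmodels 0.14.6 for loess, scipy 1.17.1 for trimmed means and matplotlib 3.10.9.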

Additional observations from a re-analysis of the deposited data

How the results depend on the processing

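The 7 alternatives (quantile normalization, equal medians, loess, a lower, a higher and no floor, and the median over probe sets) moved no readable subunit by as much as the technical SD. The log2 difference ranged from -0.39 to -0.29 for Chrnb1, from -0.17 to -0.09 for Chrna1, from 0.08 to 0.16 for Chrnd and from -0.07 to 0.01 for Chrng. The sign held under all 7 for the first 3 genes; Chrng was above 0 with equal medians and with the median over probe sets. Chrne stayed below every floor used, so the gamma minus epsilon difference had no value; with no floor it was -0.73, which rests on Chrne signals under the floor. Myf6 stayed past 2-fold under all 7, at no less than 1.17, a bound with the higher floor, and Dcn was just under it with loess (0.99).

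The background counts depended more on the settings. Genes at least 2-fold higher in truncated Egr3 were 55, and 87 with equal medians, 84 with the lower floor and 603 with no floor; at 1.5-fold they were 484 and at 3-fold 8. Genes at least 2-fold lower were 116, and 185 with the lower floor, 76 with the higher floor and 1206 with no floor; at 1.5-fold they were 473 and at 3-fold 38. With equal medians 48.3% of the genes at 2-fold were higher in truncated Egr3, against 32.2% on the deposited scale; the cause was not tested. No paired analysis was possible because each label has 1 RNA. For the same reason no replicate could be left out.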
